A study of Mus musculus with 8 samples.

Results

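The genes described here are 8 transcriptional repressors of hematopoietic stem cells, *Gfi1*, *Gfi1b*, *Hhex*, *Etv6*, *Prdm16*, *Ikzf1*, *Ikzf2* and *Zbtb16*. They were chosen by name, all 8 were found in the count table by their Ensembl identifiers, and all 8 passed the filter on low counts that left 20610 of 55487 genes for testing. The samples were LT-HSCs, the long-term repopulating stem cells, sorted as LSK CD48- CD150+ cells from mouse fetal liver at E14.5, with 500 cells in each of 3 *IκBα* WT, 3 HET and 2 KO samples. IκBα is the inhibitor of NF-κB encoded by *Nfkbia*, and the mutant allele is *Nfkbia* tm1Bal. WT1, WT2 and HET1 came from male embryos and are labelled total RNA, whereas WT3, HET2, HET3, KO1 and KO2 came from female embryos and are labelled polyA RNA, so sex and RNA label cannot be told apart. A *Gfi1*:tomato reporter line was also kept in the study, partly crossed to the *IκBα* mutant. Whether any embryo of these samples carried that reporter is not given in the sources used here, and its part in the *Gfi1* levels was not tested.

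GFI1 and GFI1B are zinc finger proteins that recruit the LSD1-CoREST complex to silence genes, and they turn off the endothelial program when blood cells form from hemogenic endothelium. In later hematopoiesis GFI1 restrains the proliferation of HSCs, while GFI1B is prominent in erythroid and megakaryocytic cells. HHEX is a homeobox repressor that binds Groucho/TLE proteins, ETV6 is an ETS family repressor needed to maintain adult HSCs, and PRDM16 is a zinc finger protein needed to maintain HSCs. IKZF1 (Ikaros) and IKZF2 (Helios) are related zinc finger proteins that work with the NuRD complex, and ZBTB16 (PLZF) recruits NCoR/SMRT through its BTB domain.

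The upstream sequences of *Gfi1*, *Gfi1b* and *Etv6* are shown because the levels of *Gfi1* and *Gfi1b* ran in opposite directions across the samples, and because *Gfi1b* and *Etv6* carry the GFI1 and GFI1B core letters. They are the 250 bases before a RefSeq start on GRCm38.p6, written 5′ to 3′ on the gene's strand, and capitals mark AAATCA or its reverse complement. *Gfi1* lies on the minus strand, and the window chr5:107724344-107724593 precedes the start at 107724343. That start lies 1693 bases from the annotated start of *Gfi1*, so the window lies inside the gene. The window before its other RefSeq start lies wholly in annotated exons and is not shown. *Gfi1b* is on the minus strand with the window chr2:28621983-28622232, and *Etv6* is on the plus strand with chr6:134035450-134035699.
Gfi1: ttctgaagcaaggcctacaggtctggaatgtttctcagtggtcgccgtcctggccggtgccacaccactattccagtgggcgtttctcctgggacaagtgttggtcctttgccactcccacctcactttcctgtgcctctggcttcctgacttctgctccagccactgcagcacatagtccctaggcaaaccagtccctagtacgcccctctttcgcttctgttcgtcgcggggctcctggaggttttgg
Gfi1b: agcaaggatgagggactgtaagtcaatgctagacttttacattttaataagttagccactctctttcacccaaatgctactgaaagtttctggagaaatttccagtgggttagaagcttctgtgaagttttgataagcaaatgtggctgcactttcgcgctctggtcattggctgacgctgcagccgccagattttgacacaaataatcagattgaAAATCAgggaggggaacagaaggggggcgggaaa
Etv6: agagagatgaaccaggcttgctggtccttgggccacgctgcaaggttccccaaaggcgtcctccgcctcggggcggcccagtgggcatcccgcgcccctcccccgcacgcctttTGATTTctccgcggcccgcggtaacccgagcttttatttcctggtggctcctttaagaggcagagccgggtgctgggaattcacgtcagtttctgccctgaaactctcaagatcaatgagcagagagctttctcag
The table held 8 such windows for 6 of the 8 genes. AAATCA was found once in *Gfi1b*, once in *Etv6* as its reverse complement, and 2 times in the window of *Ikzf1* that precedes the start at 11690177. That start lies 5174 bases from the annotated start of *Ikzf1*, and no annotated *Ikzf1* transcript holds the stretch that follows it. No other window of these genes, including both *Gfi1* windows, held AAATCA. Of all 32851 promoter windows of this length, 12.4% held it. CGGAAG, a longer form of the ETS motif read the same way, was found in none of the 8 windows and in 13.6% of all windows. The shorter ETS core GGAA was not counted, and it occurs in each window shown. AGATAA, a form of the GATA motif, was likewise in none of the 8 and in 9.99% of all windows. TGTGGT, a form of the RUNX motif, was in none of the 8 and in 14% of all windows. Other forms of these motifs were not searched, and the *Gfi1b* window shown holds TGATAA.

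The deleted gene was checked first. *Nfkbia* was at 45.3, 67.7 and 23.4 CPM, read counts scaled to a common library total, in WT1, WT2 and WT3, at 23.3, 29.0 and 14.4 CPM in HET1, HET2 and HET3, and at 0.0489 and 0 CPM in KO1 and KO2 (1 read and no read). The libraries differed in the markers of the sorted cell type. The sum of 10 LT-HSC markers was 2099, 2238 and 378 CPM in WT1, WT2 and WT3, 866, 742 and 288 CPM in HET1, HET2 and HET3, and 2055 and 1364 CPM in KO1 and KO2. WT3 and HET3 were thus lowest, and HET1 and HET2 also lay below WT1, WT2 and both KO samples. *Ly6a*, which encodes the sorting marker SCA1, was at 5.0 CPM in WT3 and at 0 in HET3. It was at 14.1 to 77.2 CPM in the other libraries, while *Kit* spanned only 135 to 231 CPM. The sum of 8 hepatocyte markers was 1310 CPM in WT3 and 645 CPM in HET3, against 7.68 to 237 CPM elsewhere. The sum of 8 erythroid markers was lowest in KO1 at 1651 CPM and highest in HET1 at 11256 CPM, and *Klf1*, the erythroid master regulator, ranged from 36.2 CPM in KO1 to 1227 CPM in HET3. The part of these cells in the results below was not tested. The main fits of KO against WT and HET, HET against WT and male against female are each also given without WT3 and HET3. So are the list medians. The paralog ratios, the permutation tests and the fit within the female samples are given only with them. Between 17895973 and 21720972 reads per library were counted on genes. Scaled by these totals alone, 3 reads would be 0.138 to 0.168 CPM. The CPM values given here were also scaled between libraries by TMM, so this range does not apply to them directly. On their scale, 1 read in KO1 was 0.0489 CPM. In bulk samples, fewer cells of a type and less RNA per cell cannot be told apart.

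*Gfi1* (ENSMUSG00000029275, chr5:107716657-107726036, GRCm38) was at 116, 109 and 9.89 CPM in WT1, WT2 and WT3, at 39.4, 25.9 and 1.54 CPM in HET1, HET2 and HET3, and at 87.7 and 75.7 CPM in KO1 and KO2. The KO samples thus lay below the male WT samples and above all others, and HET3 held only 26 *Gfi1* reads. Its paralog *Gfi1b* (ENSMUSG00000026815, chr2:28609450-28621982) took the opposite course. It was at 98.2, 98.0 and 499 CPM in the WT samples, at 324, 369 and 573 CPM in the HET samples and at 113 and 229 CPM in the KO samples. The male WT samples were lowest in *Gfi1b*, both KO samples came next, and WT3 and HET3 were highest.

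Per kilobase of exon, a scale that adjusts for gene length, *Gfi1b* exceeded *Gfi1* in all 8 samples. In CPM, *Gfi1* was the higher in WT1 (116 against 98.2) and in WT2 (109 against 98.0). The order there thus rests on the exon lengths used, 3187 bases for *Gfi1* and 1830 for *Gfi1b*. The ratio of *Gfi1b* to *Gfi1* per kilobase was 1.47, 1.57 and 87.9 in WT1, WT2 and WT3, 14.3, 24.8 and 647 in HET1, HET2 and HET3, and 2.25 and 5.26 in KO1 and KO2. On the log2 scale KO minus WT and HET was -2.46 in the mean of this ratio, with overlapping ranges (exact two-sided permutation test, p = 0.429, n = 2 and 6, smallest possible p 0.0714). HET minus WT was 3.38, again with overlapping ranges (exact two-sided permutation test, p = 0.3, n = 3 and 3, smallest possible p 0.1). The 2 Ikaros family genes showed a like opposition. *Ikzf1* over *Ikzf2* per kilobase was 1.05, 1.2 and 15.6 in the WT samples, 3.35, 9.21 and 73.5 in the HET samples, and 0.945 and 2.67 in the KO samples. The plot of paralog levels by library shows the gap between the partners as narrow in WT1, WT2 and KO1 and as widest in HET3.

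**Figure D1:**
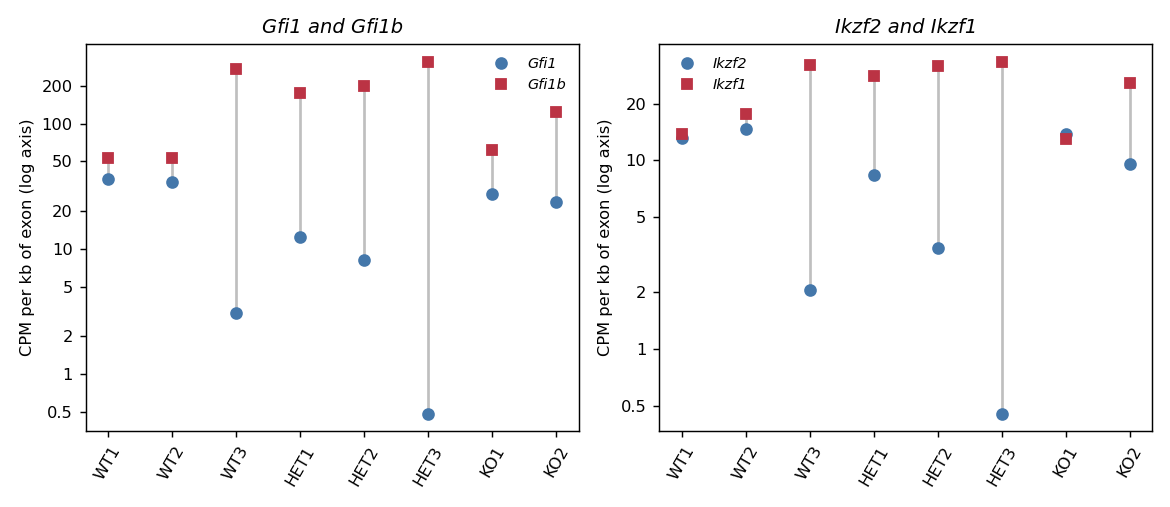
Levels per kilobase of exon (CPM per kb, log axis) of *Gfi1* and *Gfi1b* (left) and of *Ikzf2* and *Ikzf1* (right) in each of the 8 libraries, with a grey line joining the partners. The ratio of *Gfi1b* to *Gfi1* goes from 1.47 in WT1 to 647 in HET3, and that of *Ikzf1* to *Ikzf2* from 0.945 in KO1 to 73.5 in HET3.

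*Hhex* (ENSMUSG00000024986, chr19:37434810-37440731) was at 413, 390 and 101.6 CPM in WT1, WT2 and WT3, at 183, 148 and 84.8 CPM in HET1, HET2 and HET3, and at 331 and 246 CPM in KO1 and KO2. The order of the samples was that of *Gfi1*. *Etv6* (ENSMUSG00000030199, chr6:134035700-134270158) was at 128, 149 and 35.5 CPM in the WT samples, at 83.9, 62.8 and 31.7 CPM in the HET samples and at 152 and 103 CPM in the KO samples. For *Etv6* the highest value was that of KO1, and KO2 lay below both male WT samples. *Prdm16* (ENSMUSG00000039410, chr4:154316125-154636873) was the scarcest of the genes that were low in WT3 and HET3. It was at 18.2, 25.7 and 0.417 CPM in the WT samples, at 6.65, 3.88 and 0.475 CPM in the HET samples and at 19.9 and 9.39 CPM in the KO samples. WT3 and HET3 held 8 *Prdm16* reads each, so their values rest on few reads.

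*Ikzf2* (ENSMUSG00000025997, chr1:69531214-69687245) was at 153, 171 and 23.9 CPM in WT1, WT2 and WT3, at 97.5, 40.1 and 5.28 CPM in HET1, HET2 and HET3, and at 160 and 111 CPM in KO1 and KO2. *Ikzf1* (ENSMUSG00000018654, chr11:11685003-11772926) was at 79.6, 102.03 and 186 CPM in the WT samples, at 163, 183 and 193 CPM in the HET samples and at 75.5 and 148 CPM in the KO samples. Helios was thus high in the male WT and KO samples, and Ikaros was high in WT3 and the HET samples, with KO2 between the groups. *Zbtb16* (ENSMUSG00000066687, chr9:48654297-48836222) had few reads in every sample. It had 13, 5 and 38 reads in the WT samples, 26, 25 and 41 in the HET samples and 9 and 40 in the KO samples, which is 0.209 to 2.43 CPM, and KO1 lay near the lower and KO2 near the upper end of that range.

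**Figure D2:**
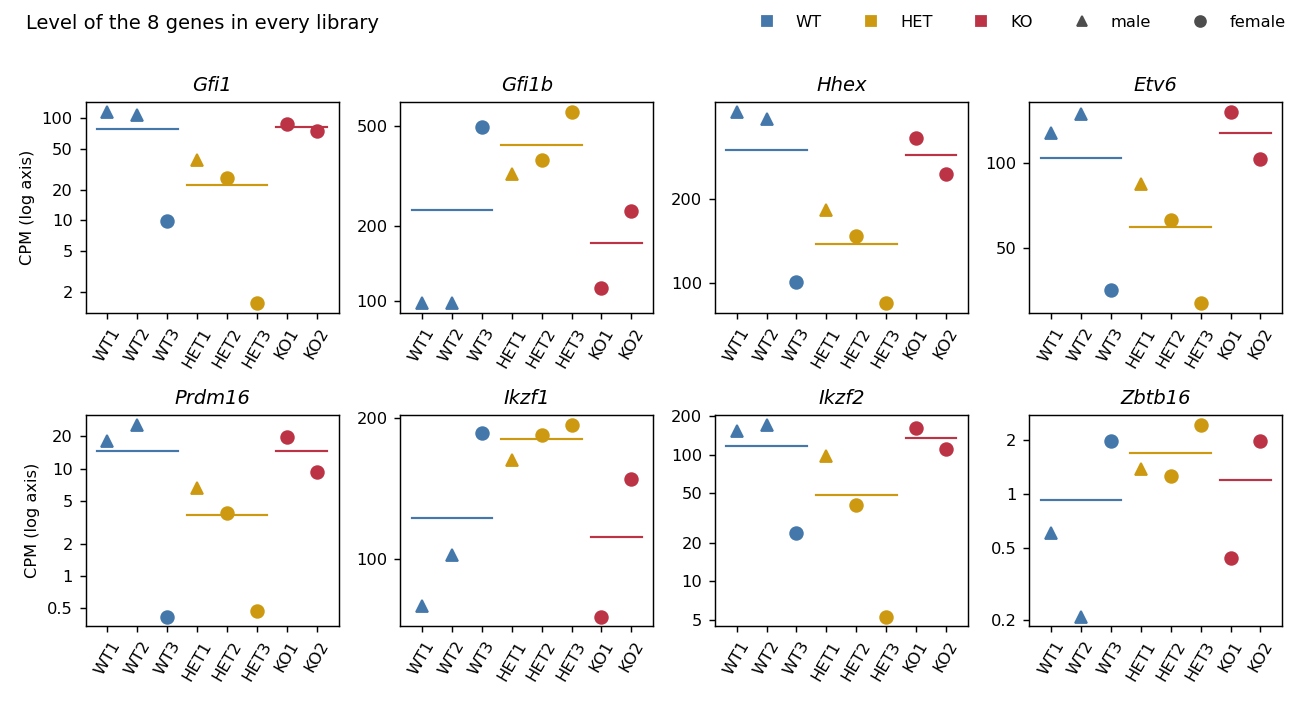
CPM (log axis) of the 8 genes in the 8 libraries, with colors for genotype, triangles for male and circles for female embryos, and a line at each group's arithmetic mean. *Gfi1*, *Hhex*, *Etv6*, *Prdm16* and *Ikzf2* are lowest in WT3 and HET3, and *Gfi1b*, *Ikzf1* and *Zbtb16* are highest there.

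Ordered by mean level per kilobase, *Gfi1b* had the highest mean in each genotype, at 127 ± 127 CPM per kb in WT (SD, n = 3), 230 ± 72.5 in HET (SD, n = 3) and 93.4 ± 44.7 in KO (SD, n = 2). Its place in WT rested on WT3, at 273 CPM per kb. *Hhex* was the higher of the pair in WT1 (81.7 against 53.6 CPM per kb), in WT2 (77.1 against 53.6) and in KO1 (65.5 against 61.8). All neighbours in the WT order overlapped. In KO it was followed by *Hhex* at 57.1 ± 11.9, *Gfi1* at 25.6 ± 2.68, *Etv6* at 21.3 ± 5.75, *Ikzf1* at 19.3 ± 8.88, *Ikzf2* at 11.7 ± 3.00, *Prdm16* at 1.57 ± 0.798 and *Zbtb16* at 0.228 ± 0.204 CPM per kb (SD, n = 2). Neighbours in this order did not overlap between *Hhex* and *Gfi1*, between *Ikzf2* and *Prdm16* and between *Prdm16* and *Zbtb16*, and overlapped elsewhere. In HET the order was *Gfi1b*, *Ikzf1* at 31.1 ± 2.69, *Hhex* at 27.4 ± 9.85, *Etv6* at 9.94 ± 4.39, *Gfi1* at 6.99 ± 6.01, *Ikzf2* at 4.10 ± 4.01, *Prdm16* at 0.394 ± 0.332 and *Zbtb16* at 0.320 ± 0.122 CPM per kb (SD, n = 3). Neighbours did not overlap in HET between *Gfi1b* and *Ikzf1* and between *Hhex* and *Etv6*, and overlapped elsewhere.

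KO samples were compared with WT and HET to ask how the loss of IκBα changes the LT-HSC transcriptome. With sex in the model, *Gfi1*, *Hhex*, *Etv6*, *Prdm16* and *Ikzf2* were higher and *Gfi1b*, *Ikzf1* and *Zbtb16* were lower in KO, but no gene passed the threshold (edgeR's quasi-likelihood test, Benjamini-Hochberg adjusted p under 0.05 and absolute log2 fold change over 1). The share of all 20610 genes called was 0%, and the lowest adjusted p of any gene was 0.0862. The log2 fold change was 2.71 ± 0.875 (SE) for *Gfi1*, a 6.54-fold higher level with edgeR's adjusted p = 0.153. It was 3.19 ± 0.970 for *Prdm16* (adjusted p = 0.152), 2.56 ± 0.648 for *Ikzf2* (adjusted p = 0.148), 1.56 ± 0.348 for *Etv6* (adjusted p = 0.148) and 1.37 ± 0.364 for *Hhex* (adjusted p = 0.148). *Gfi1b* had a log2 fold change of -1.49 ± 0.576 (adjusted p = 0.170), *Ikzf1* of -0.75 ± 0.350 (adjusted p = 0.218) and *Zbtb16* of -0.65 ± 0.928 (adjusted p = 0.684).

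At an unadjusted p under 0.05 in the same edgeR fit, 5 of the 8 genes were higher and 1, *Gfi1b*, was lower in KO. This threshold was met upward by 15.7% and downward by 9.48% of all genes tested. The median log2 fold change was 1.46 over the 8 genes and 0.13 over all genes. DESeq2 with apeglm shrinkage, the tools of the study, called 1476 genes or 7.16%, of which 6.56% were higher and 0.607% lower. It called 6 of the 8 genes, with shrunken log2 fold changes of 2.07 ± 0.955 (SE) for *Gfi1*, 1.11 ± 0.436 for *Hhex*, 1.33 ± 0.420 for *Etv6*, 2.54 ± 1.04 for *Prdm16*, 2.17 ± 0.699 for *Ikzf2* and -1.07 ± 0.659 for *Gfi1b*. Their DESeq2 adjusted p-values lay between 0.00600 for *Ikzf2* and 0.0431 for *Gfi1b*, and those of *Ikzf1* and *Zbtb16* were 0.120 and 0.608. Over all alternatives tried, the adjusted p of *Ikzf2* ranged from 0.00600 to 0.9999 and that of *Gfi1b* from 0.0431 to 0.9999. Leaving out HET2 led edgeR to call 730 genes (3.54%) and 3 of the 8, *Etv6*, *Prdm16* and *Ikzf2*.

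Both KO samples lay beyond all 6 WT and HET samples in CPM for none of the 8 genes, a separation found upward in 3.05% and downward in 1.79% of all genes. The exact two-sided permutation test on log2 CPM over these 8 samples gave p-values from 0.286 for *Etv6* and *Ikzf1* to 0.929 for *Zbtb16* (smallest possible p 0.0714). Both KO samples are female, and the separation was seen against the 3 female WT and HET samples alone. There, 5 genes were higher in both KO samples than in WT3, HET2 and HET3 (background 27.1%), and *Gfi1b* and *Ikzf1* were lower in both (background 21.4%). Fitted within the 5 female samples, the log2 fold changes were 2.66 ± 0.916 (SE) for *Gfi1*, 1.32 ± 0.265 for *Hhex*, 1.51 ± 0.333 for *Etv6*, 3.13 ± 1.02 for *Prdm16*, 2.50 ± 0.711 for *Ikzf2* and -1.53 ± 0.356 for *Gfi1b*. No gene was called there by edgeR (0% of 20540), 7 of the 8 genes had an unadjusted p under 0.05 against 25% of all genes, and the lowest adjusted p among the 8 was 0.118. DESeq2's Wald test called 5 of the 8 genes in these samples, and 9.08% of all genes.

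The size of these differences depended on WT3 and HET3, 2 of the 3 female reference samples. Without these libraries the log2 fold change with sex in the model was 1.63 ± 0.642 (SE) for *Gfi1*, 0.93 ± 0.518 for *Hhex*, 0.99 ± 0.424 for *Etv6*, 1.88 ± 0.892 for *Prdm16*, 1.73 ± 0.437 for *Ikzf2* and -1.14 ± 0.773 for *Gfi1b*, and edgeR called none of the 20585 genes, with 5.09% at an unadjusted p under 0.05. *Ikzf1* was at -0.74 ± 0.517 and *Zbtb16* at -0.096 ± 1.37 in this fit. HET2 was then the only female reference sample. Without the libraries and without the sex term, values shrank to 0.17 ± 0.578 for *Gfi1*, 0.03 ± 0.439 for *Hhex*, 0.27 ± 0.357 for *Etv6*, 0.11 ± 0.732 for *Prdm16*, 0.24 ± 0.507 for *Ikzf2* and -0.39 ± 0.639 for *Gfi1b*. With all 8 samples and no sex term, *Gfi1* was at 0.70 ± 1.13 and *Gfi1b* at -0.93 ± 0.724. Against the male WT1 and WT2 alone, KO samples were both lower in *Gfi1* and *Hhex* (background 17.9%) and both higher in *Gfi1b* (background 15.7%), the reverse of the direction against the female samples.

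**Figure D3:**
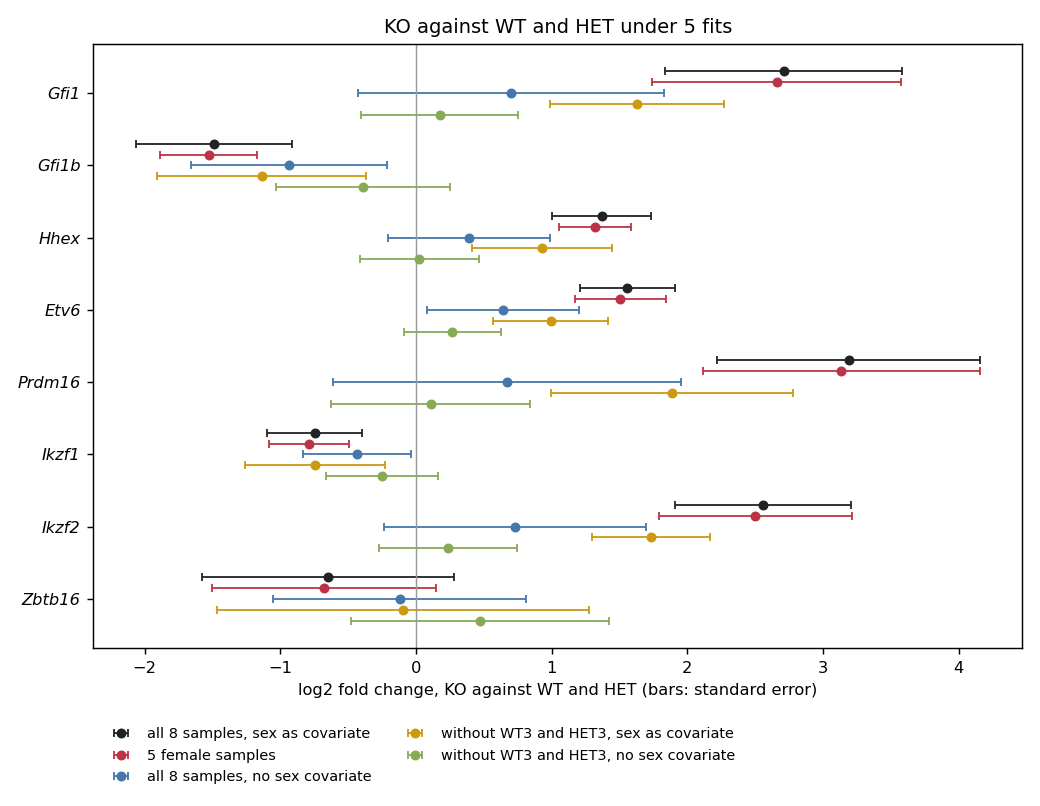
Log2 fold change of each gene in KO against WT and HET, with bars for the standard error, from edgeR under 5 fits that differ in the samples and in the sex term. The point for *Gfi1* goes from 2.71 with all samples and sex in the model to 0.17 without WT3 and HET3 and without the sex term.

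HET was compared with WT to ask whether the loss of a single allele has an effect. The 3 HET and 3 WT samples overlapped in each of the 8 genes (of all genes, 4.2% were higher and 4.85% lower in all 3 HET samples), and edgeR with sex in the model called none of the 8 and 0% of 20585 genes, with 3.63% of all genes and none of the 8 at an unadjusted p under 0.05 (DESeq2's Wald test called 64 genes). The labels do not pair WT with HET samples, and WT2 correlated more with HET1 (r = 0.59) than with HET2 (r = 0.38). Same-numbered samples deviated together, but so did WT1 and HET2 (r = 0.34), so this was not particular to shared numbers. Same-numbered samples are also compared here as pairs. Within these pairs *Gfi1*, *Hhex*, *Etv6* and *Ikzf2* were lower in HET in all 3 (background 21.4%) and *Gfi1b*, *Ikzf1* and *Zbtb16* higher in all 3 (background 19%), while *Prdm16* was lower in 2 of 3. The log2 fold change without the pairing was -0.53 ± 1.09 (SE) for *Gfi1*, 0.82 ± 0.398 for *Gfi1b*, -0.47 ± 0.383 for *Hhex* and 0.43 ± 0.220 for *Ikzf1*, with adjusted p-values of 0.981, 0.931, 0.932 and 0.931. With the replicate number as a block, *Gfi1* was at -2.03 ± 0.342 and *Ikzf2* at -1.37 ± 0.404, with edgeR's adjusted p-values of 0.396 and 0.759, and no gene was called. Without WT3 and HET3, edgeR called 1967 genes (9.6%) and 4 of the 8. These were *Gfi1* at -1.51 ± 0.195 (adjusted p = 0.000568), *Gfi1b* at 1.72 ± 0.163 (adjusted p = 8.3e-05), *Hhex* at -1.13 ± 0.186 (adjusted p = 0.00220) and *Prdm16* at -1.72 ± 0.359 (adjusted p = 0.00774). HET2 was then the only female sample, so that with sex in the model the difference came from HET1 against WT1 and WT2. Over all alternatives, the adjusted p of these 4 genes reached 1. The test of whether the HET-WT difference varied with sex rested on HET1 as the only male HET and on WT3 as the only female WT sample, and could not be made without WT3. It called 0% of 20585 genes and none of the 8, with 3 of the 8 and 10.4% of all genes at an unadjusted p under 0.05.

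The male samples labelled total RNA were also compared with the female WT and HET samples labelled polyA RNA, with genotype in the model. *Gfi1*, *Hhex*, *Etv6*, *Prdm16* and *Ikzf2* were higher in all 3 male than in all 3 female samples (background 21.1%), and *Gfi1b* and *Ikzf1* were lower in all 3 (background 17.5%). The log2 fold changes, male over female, were 2.82 ± 0.831 (SE) for *Gfi1*, 1.56 ± 0.338 for *Hhex*, 1.47 ± 0.322 for *Etv6*, 3.39 ± 0.930 for *Prdm16*, 2.60 ± 0.613 for *Ikzf2* and -1.47 ± 0.499 for *Gfi1b*. EdgeR called 4 of all genes (0.0194%) and none of the 8, whose lowest adjusted p was 0.0895, while 7 of the 8 had an unadjusted p under 0.05 against 32.4% of all genes. WT3 and HET3 were 2 of the 3 female samples here. Without them the log2 fold changes were 1.73 ± 0.624 for *Gfi1*, 1.11 ± 0.502 for *Hhex*, 0.90 ± 0.405 for *Etv6*, 2.08 ± 0.874 for *Prdm16*, 1.78 ± 0.425 for *Ikzf2* and -1.12 ± 0.712 for *Gfi1b*. None of the 8 was then called by edgeR, their lowest adjusted p was 0.587, and HET2 was the only female reference sample. Without HET1, 3070 genes and 7 of the 8 were called (14.9% of all genes).

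The levels of the 8 genes varied with the LT-HSC markers across the libraries, in the same direction for 5 genes and in the opposite direction for *Gfi1b*, *Ikzf1* and *Zbtb16*. Set against the sum of the 10 markers, *Hhex* was at 17.4 to 26.9 per 100 marker CPM in WT, 20.01 to 29.4 in HET and 16.1 to 18.03 in KO, so that its highest ratio was 1.83 times its lowest, compared with 4.87 times for its CPM. *Etv6* spanned 1.81 times in this ratio and 4.79 times in CPM, with 7.40 and 7.57 per 100 marker CPM in the KO samples inside the WT range of 6.10 to 9.39. *Gfi1* spanned 75.2 times in CPM and 10.4 times in the ratio. In the 4 reference samples other than WT3 and HET3 it was at 3.50 to 5.53 per 100 marker CPM, and in KO at 4.27 and 5.55. *Gfi1b*, *Ikzf1* and *Zbtb16* behaved otherwise. Their ratios spanned 45.4, 18.3 and 90.5 times, against 5.84, 2.56 and 11.6 times in CPM.

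**Figure D4:**
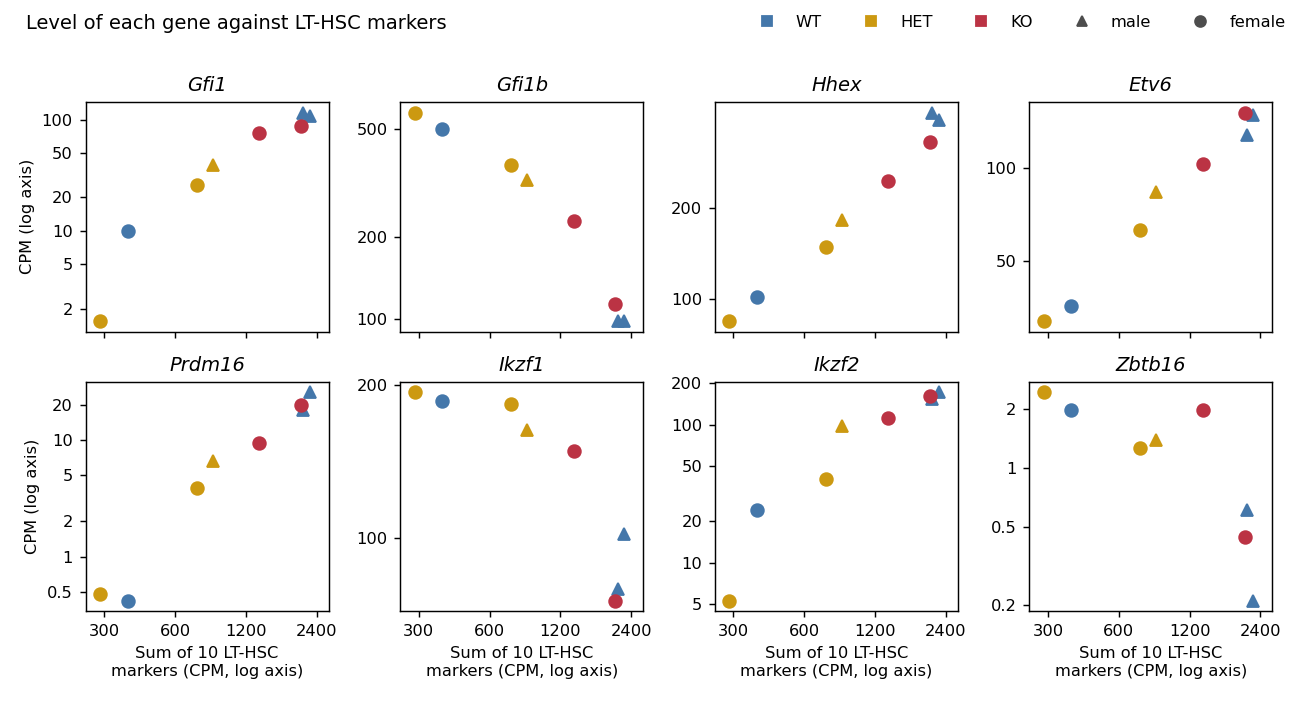
CPM of each gene against the summed CPM of 10 LT-HSC markers (both log axes) in the 8 libraries, with colors for genotype and marker shapes for sex. *Gfi1*, *Hhex*, *Etv6*, *Prdm16* and *Ikzf2* are high where the markers sum to 1364 CPM or more, and *Gfi1b* is highest in HET3, where they sum to 288 CPM.

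Across the 8 samples, *Gfi1* had Pearson's r = 0.93 with *Hhex*, 0.94 with *Etv6* and 0.99 with *Ikzf2*, and -0.86 with *Gfi1b* (log2 CPM, described over samples that share depth, sex and the marker differences above, with no test). Outside the 8 genes, among 8875 genes with a mean of at least 10 CPM, the patterns closest to *Gfi1* were those of *Sptan1*, *Adgrl4* and *Gimap6* (r = 0.9987, 0.9983 and 0.9982). Those closest to *Gfi1b* were *Nfkbib*, which encodes another inhibitor of NF-κB, *Polr1e* and *Pdss1*. *Nfkbib* was at 61.6, 60.5 and 119 CPM in WT, at 97.6, 101.6 and 126 CPM in HET and at 66.1 and 86.4 CPM in KO. The genes close to *Hhex* included *Thap3* and *Txnip*, and *Etv6* was closest to *Zfp358*, *Plekha2* and *Cbfb*, the last of which encodes the partner of RUNX factors. *Prdm16* was closest to *4933412E12Rik*, *Hcls1* and *A230050P20Rik*, *Ikzf1* to *Acmsd*, *A730089K16Rik* and *Klf9*, *Ikzf2* to *Tep1*, *Basp1* and *Sorbs3*, and *Zbtb16* to *Alg8*, *Cnot1* and *Ints13*.

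The lists of cofactors through which these repressors act had medians near that of all genes. No gene of any list was called by edgeR, so counts are given at an unadjusted p under 0.05, which 25.2% of all genes met. Of 13 LSD1-CoREST genes, 3 were higher and none lower, with a median log2 fold change of 0.11, and the higher genes included *Rcor2* at 1.31 ± 0.485 (SE) and *Phf21a* at 1.76 ± 0.757. Of 13 NuRD genes, 1 was higher (*Chd3*, a remodeling ATPase, at 2.35 ± 0.724) and 2 were lower (*Mta3* at -0.57 ± 0.193 and *Mbd2*, which binds methylated DNA, at -0.98 ± 0.409), and the median was -0.17. Of 15 NCoR, SIN3, Groucho and CtBP genes, 4 were higher and 2 lower with a median of 0.01. *Tle2*, a Groucho family corepressor, was at 6.27, 4.72 and 0.156 CPM in WT, at 2.98, 0.404 and 0.119 CPM in HET and at 3.87 and 2.61 CPM in KO (log2 fold change 3.79 ± 0.666), and *Sin3a*, the scaffold of the SIN3 complex, was at 0.67 ± 0.159.

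Of 16 family relatives tested, 6 were higher and none lower, among them *Zbtb20* at 2.49 ± 0.522, *Bcl6b* at 2.63 ± 0.740, the ETS repressor *Etv3* at 1.22 ± 0.463 and *Mecom*, a relative of *Prdm16* that is also among the LT-HSC markers, at 2.82 ± 1.09 on the log2 scale. Of 13 genes listed as repressed by GFI1 or GFI1B, 6 were higher and none lower in KO (median 0.78). *Meis1*, a homeobox gene of HSCs, was at 277, 256 and 21.7 CPM in WT, at 96.6, 56.3 and 8.72 CPM in HET and at 250 and 144 CPM in KO, so that it had the sample order of *Gfi1*. *Sox4* was at 1.90 ± 0.564, *Spi1*, which encodes PU.1, at 1.88 ± 0.576 and the survival gene *Bcl2l1* at 0.78 ± 0.241. Of 12 endothelial genes, the class that GFI1 and GFI1B silence when HSCs form, 7 were higher and none lower with a median of 2.56, including *Eng* at 1.87 ± 0.433, *Pecam1* at 2.45 ± 0.748, *Sox18* at 2.92 ± 0.848 and the receptor gene *Tek* at 3.18 ± 1.10. The summed CPM of these 12 genes was 690, 632 and 69.8 in WT1, WT2 and WT3, 228, 195 and 52.7 in HET1, HET2 and HET3, and 596 and 372 in KO1 and KO2, so KO lay below the male WT samples.

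Of 8 genes of the HSC factor heptad and PU.1, 5 were higher and 1 lower (median 1.57). *Gata2*, which is required for HSC formation, was at 140, 148 and 28.4 CPM in WT, at 76.3, 40.3 and 34.4 CPM in HET and at 180 and 138 CPM in KO (2.21 ± 0.295), *Fli1* was at 2.42 ± 0.724 and *Runx1* at 1.26 ± 0.363. Among the lymphoid priming genes, *Flt3* was at 1.71 ± 1.22 and *Vpreb1* at -0.88 ± 1.17 (unadjusted p = 0.196 and 0.474). For comparison, all 10 LT-HSC markers were higher in KO at this threshold (median 2.65), 0 of 8 hepatocyte markers met it (median -2.69), and 1 of 8 erythroid markers was lower (median -1.19). Of 7 megakaryocyte markers 2 were higher (median 1.53), of 8 myeloid markers 1 was lower (median -0.56), and of 4 lymphocyte markers tested 1 was higher (median 0.66). Without WT3 and HET3 the medians turned direction for the myeloid (0.39) and lymphocyte markers (-0.12) and for the lymphoid priming genes (0.24 against -0.49 with all samples), and came to -0.45 for the hepatocyte, -1.51 for the erythroid and 0.87 for the megakaryocyte markers. They were 1.52 for the LT-HSC markers, 1.37 for the endothelial genes, 0.88 for the heptad and PU.1, 0.58 for the genes repressed by GFI1 and GFI1B, 0.37 for the family relatives and 0.96 for the 8 repressors. The cofactor lists were then at 0.13 (LSD1-CoREST), -0.13 (NuRD) and 0.02 (NCoR, SIN3, Groucho and CtBP). With all 8 samples and no sex term, the medians were 0.58 for the LT-HSC markers, 0.64 for the endothelial genes and 0.52 for the 8 repressors.

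**Figure D5:**
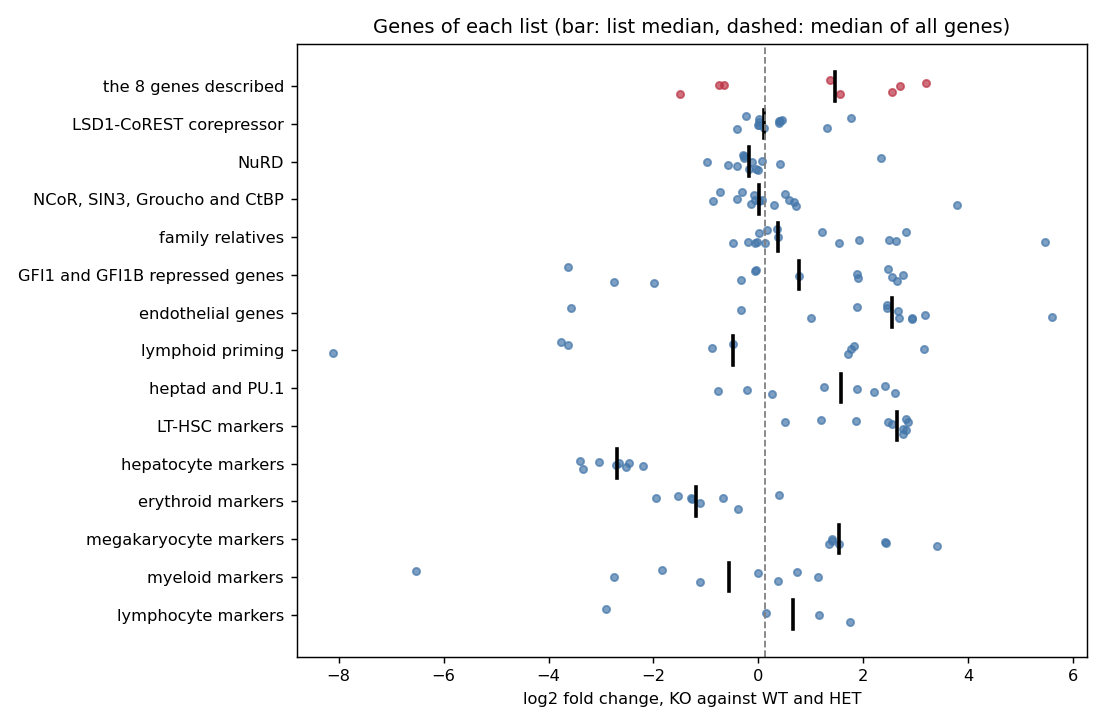
Log2 fold change of each gene in KO against WT and HET (edgeR, sex in the model), by list, with a bar at the list's median and a dashed line at the median of all genes (0.13). The cofactor lists center near that line, and the LT-HSC markers and endothelial genes lie mostly to its right.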

How the data were processed

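RNA of 500 sorted fetal liver LT-HSCs per sample was amplified as cDNA by long-distance PCR and sequenced as single-end reads. The authors deposited raw counts per Ensembl gene, made per the methods and processing notes with Trim Galore 0.6.6 and STAR 2.7.8 on GRCm38 from uniquely mapped reads. The strand column used is not given, so reads shared with overlapping or antisense genes are uncertain (*Gfi1* shares 3.17% of its exon bases with an antisense gene, *Etv6* 2.26%). The authors also deposited log2 values, variance-stabilized with DESeq2 1.38.3 and corrected for sex with limma, which were used only as an alternative for the direction of a difference. Samples were grouped by their labels.

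Here, genes with at least 10 reads over 8 samples were kept, scaled by TMM and fitted in edgeR 4.0.16 under R 4.3.3 (quasi-likelihood, legacy form) with sex and KO status as terms. Calls needed a Benjamini-Hochberg adjusted p below 0.05 together with a log2 fold change beyond 1 in either direction. Standard errors were derived from the fold change and the F statistic. DESeq2 1.42.0 with apeglm 1.24.0 was an alternative. CPM used library totals scaled by TMM, CPM per kb the union of GENCODE M21 exons, and log2 CPM a prior count of 2. Single genes were also compared by exact permutation (scipy 1.17.1). The steps were tested on simulated data. Nothing in the labels says whether replicates are separate litters, and p-values measure the spread between these samples.

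The genes described and all gene lists were chosen with earlier results of these data known. Beside the 8 genes and *Nfkbia*, up to 4 genes per list with the lowest unadjusted p and a mean of at least 1 CPM, and the 3 genes most like each of the 8, were eligible to be named, and some that the rule named are not reported here. Marker genes such as *Ly6a*, *Kit* and *Klf1* were named after their values were seen. WT3 and HET3 were left out as alternatives chosen after the data were seen. Same-numbered WT and HET samples deviated together from their group means (r = 0.51, 0.38 and 0.72), and so were also compared as pairs. The labels do not give this pairing, and WT2 correlated more with HET1 (r = 0.59) than with HET2. The highest of these values joined WT3 and HET3, the libraries lowest in LT-HSC markers. A further KO sample that the authors discarded for sequencing quality was not analysed here.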

Additional observations from a re-analysis of the deposited data

Results flagged for a closer look

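Among the 6 WT and HET samples, the sum of 8 erythroid markers had its highest sample, HET1, far from the others, with a gap of 0.630 of the whole range. The sum of 7 megakaryocyte markers had WT2 far from the others in the same way, with a gap of 0.676 of the range, against a critical value of 0.625. None of the 8 repressors met this rule, and neither did the sum of LT-HSC markers or that of hepatocyte markers. Chance flags about 1 in 20 such groups, and 14 were examined.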

How the results depend on the processing

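For KO against WT and HET, where the main test called 0 genes and 0 of the 8, the count of genes and of members called was 1106 and 5 with no filter beyond 1 read, 1855 and 6 with DESeq2's Wald test, 1476 and 6 with apeglm shrinkage, and 662 and 5 with WT alone as the reference, while the edgeR version 4 form called 1 gene. Leaving out each sample in turn gave 0 to 730 genes and 0 to 3 members, with 8 genes without HET1. Within the female samples the counts were 1543 and 6 with no filter, 1866 and 5 with the Wald test and 3 genes with the version 4 form, and leaving out samples gave 0 to 1196 genes and 0 to 2 members, the highest without KO2 (*Gfi1b* and *Ikzf1*). For HET against WT, no filter called 131 genes and the Wald test 64, leaving out samples gave 0 to 135 genes and 0 to 1 members (*Gfi1* without HET2), and without WT3 and HET3 1967 genes and 4 members were called. For male against female samples, where 4 genes were called, no filter called 2255 genes and 6 members and the version 4 form 7 genes, leaving out samples gave 2 to 3070 genes and 0 to 7 members (1325 and 5 without HET2), and without WT3 and HET3 2 genes were called. With no filter, 31478 genes were tested for KO and for male against female, 29162 within the female samples and 29500 for HET against WT. The main fits tested 20610 genes for KO and for male against female, 20540 within the female samples and 20585 for HET against WT. The cause of these changes was not tested.

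*Zbtb16* turned direction for KO without KO1, with a range of -2.09 to 0.058 when samples were left out in turn (-2.15 to 0.034 within the female samples), and without WT3, HET3 and the sex term (0.47). Under that last setting *Flt3* (-0.64), *Notch1* (-0.50), *Sox18* (-0.095), *Spi1* (-0.0059) and *Tle2* (-0.15) turned too, as did *Flt3* without the sex term (-0.070) and *Vpreb1* against WT alone (2.05) and without HET2 (range -1.63 to 1.07). For HET against WT, *Prdm16* turned with the version 4 form (-0.84), without the sex term (-2.004), under the replicate block (-0.85) and without WT3 and HET3 (-1.72), and its range with samples left out was -1.72 to 2.38. Without HET1, 5 further genes turned, with ranges of -1.89 to 0.48 for *Gfi1*, -0.092 to 1.72 for *Gfi1b*, -1.13 to 0.20 for *Hhex*, -0.72 to 0.41 for *Etv6* and -0.11 to 1.75 for *Zbtb16*. The other 7 genes kept their direction for KO in all alternative fits run, although against the levels in WT1 and WT2 alone *Gfi1* and *Hhex* were lower and *Gfi1b* higher in both KO samples. Scaling by library size only moved the median of all genes by 0.28.

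The replicate block changed no call, with 0 genes called for KO and 0 for HET against WT. For KO, same-numbered samples had r = 0.44 (WT1 and KO1), -0.51 (WT2 and KO2), 0.35 (HET1 and KO1) and -0.26 (HET2 and KO2). With 2 KO samples, their deviations from the KO mean mirror each other. These values therefore cannot tell whether the numbers pair the samples. Depth limited *Zbtb16*, at 5 to 41 reads per sample, and *Prdm16*, at 8 reads in WT3 and in HET3.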

Other observations

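The authors had removed the effect of sex from the deposited log2 values. In these, KO1 and KO2 both exceeded each of the 6 other samples for *Gfi1*, *Hhex*, *Etv6*, *Prdm16* and *Ikzf2*. Both fell short of each of them for *Gfi1b*. The share of all genes that separate in this way in these values was not computed. The separation therefore cannot be read as particular to the 8 genes. The KO mean minus the mean of the others was 2.01 for *Gfi1*, 1.17 for *Hhex*, 1.27 for *Etv6*, 1.22 for *Prdm16*, 2.09 for *Ikzf2* and -1.38 for *Gfi1b*. In CPM, which was not corrected for sex, none of the 8 genes had both KO samples beyond the others. Both KO samples are female, and WT3 and HET3 are among the other female samples.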
